A study of Mus musculus with 2 samples.

Results

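The genes described here are 48 genes of mitosis, followed in 7 kinds of cell of the mouse heart at E12.5, a stage of midgestation. They were matched by symbol in the count tables, where all 48 of them were found among 31053 genes. Single-cell RNA was measured in 2 libraries, 1 per genotype, and both genotypes carried the Tbx18-Cre driver and 1 YFP reporter allele (YFP/+). The control library had no further allele, and the mutant library also had floxed Prmt1 on both chromosomes (Prmt1 fl/fl), so the control is a Cre-positive one. Prmt1 encodes a protein arginine methyltransferase, and Tbx18 is active in the epicardium, the outer layer of the heart, and also in other cells of the developing heart, so the epicardium is not the only possible site of deletion. The labels do not say how many embryos went into each library, their sex and strain, or whether cells were sorted for YFP.

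Mitosis genes are transcribed mainly in late S phase, G2 and M phase, so their transcripts in a snapshot mark cells that are about to divide or dividing. Cyclin B and Cdk1 start mitosis, kinetochores and spindle motors move the chromosomes, and the anaphase-promoting complex ends it by marking securin and cyclin B for destruction. Securin, encoded by Pttg1, holds back the protease separase until all chromosomes are attached. Fetal cardiomyocytes still divide at this stage, as do the cells of the epicardium, the mesenchyme, the vessels and the primitive red cells in the blood.

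Many of these genes carry 2 short promoter elements, the CHR (cell cycle genes homology region, TTTGAA) and the CCAAT box (CCAAT), which are background knowledge for how their transcription is timed. RefSeq promoters of build GRCm38.p6, from the reference genome and not from these embryos, were matched for 42 of the 48 genes. Both elements were searched on both strands in the 250 bases upstream of the RefSeq start site, and matches may overlap. The CHR letters were in 16 of 42 (38.1%) against 18.3% of all 27025 genes with an entry, the CCAAT letters in 32 of 42 (76.2%) against 37.5%, and both in 15 of 42 (35.7%) against 7.34%. For 26 of the 42 the window lay wholly outside the gene as GENCODE M21 draws it, and 9 of these 26 held both elements. For the other 16 the RefSeq start lay inside the GENCODE gene, so their window is at least in part transcribed sequence. The start lay 270 bases inside for Pttg1, 629 for Cdca3, 2394 for Cdca8 and 3867 for Kif2c, so their 250-base windows lie wholly inside the gene. All 16 still count in the shares of the 42. The window of Pttg1 is for this reason not shown. The sequence upstream of the outermost Pttg1 start was not searched, and nothing is said here about its promoter. Hmgb2, Ccnb2, Mki67 and Top2a are shown as examples of the 9 with both elements, since their levels are described below. Each sequence is written 5' to 3' on the gene's strand, with the matches in capitals. Hmgb2 lies on the plus strand (chr8:57511593-57511842), and Ccnb2 (chr9:70421555-70421804), Mki67 (chr7:135716380-135716629) and Top2a (chr11:99024190-99024439) lie on the minus strand.
Hmgb2: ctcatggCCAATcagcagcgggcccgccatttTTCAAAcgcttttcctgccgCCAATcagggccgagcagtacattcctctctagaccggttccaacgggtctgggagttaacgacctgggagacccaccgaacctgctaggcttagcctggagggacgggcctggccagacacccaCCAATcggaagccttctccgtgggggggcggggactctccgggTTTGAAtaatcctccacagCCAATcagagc
Ccnb2: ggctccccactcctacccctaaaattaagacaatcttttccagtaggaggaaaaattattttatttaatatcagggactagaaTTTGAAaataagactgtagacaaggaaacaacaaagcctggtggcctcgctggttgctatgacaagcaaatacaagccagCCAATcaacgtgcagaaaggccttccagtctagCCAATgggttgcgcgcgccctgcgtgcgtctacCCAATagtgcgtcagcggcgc
Mki67: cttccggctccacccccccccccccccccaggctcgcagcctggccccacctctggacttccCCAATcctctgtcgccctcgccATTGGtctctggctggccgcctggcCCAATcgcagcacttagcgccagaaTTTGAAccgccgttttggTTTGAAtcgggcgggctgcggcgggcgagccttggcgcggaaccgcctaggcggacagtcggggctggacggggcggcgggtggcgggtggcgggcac
Top2a: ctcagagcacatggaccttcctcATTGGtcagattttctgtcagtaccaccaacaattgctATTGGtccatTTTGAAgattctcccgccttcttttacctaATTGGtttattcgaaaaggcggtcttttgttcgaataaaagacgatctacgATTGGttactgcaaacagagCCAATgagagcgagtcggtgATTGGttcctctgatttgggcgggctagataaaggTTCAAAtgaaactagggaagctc
The last base of each line is the one before the RefSeq start site. Hmgb2, Mki67 and Top2a held the CHR letters in 2 places, those of Mki67 at 116 to 111 and 98 to 93 bases before that start, and Ccnb2 held them in 1.

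Cells with at least 1000 unique molecular identifiers (UMIs, each standing for 1 captured transcript), at least 500 genes and at most 20% mitochondrially encoded UMIs were kept, 4100 in the control and 4640 in the mutant library. Their median depth was 5897 and 4046 UMIs, from deposited totals of 49323576 and 48527471 UMIs, and 8 kept barcodes occurred in both libraries. Cells were sorted into gates by the summed UMIs of fixed marker genes, none of which is a mitosis gene, and 593 control and 766 mutant cells fell into no gate. The gates held 1563 control and 1216 mutant ventricular cardiomyocytes, 483 and 373 atrial cardiomyocytes, 700 and 1120 mesenchymal cells, 251 and 330 endothelial cells, 74 and 76 macrophages and 176 and 329 red cells. The gate set by epicardial keratins and uroplakins held 260 and 430 cells. Its 10 leading genes in the control held 3 mesenchymal markers (Dcn, Col1a1 and Col1a2) and 2 epicardial ones (Upk3b and Krt18), so it is called the epicardial gate by its rule and not as a settled cell type. Levels are UMIs summed over a gate's cells per 1000000 UMIs of that gate (CPM), or per 10000 where said. A gene counted as measured at a mean of at least 10 CPM over both libraries, and ratios are given on the log2 scale with 10 CPM added to each level. Intervals are exact 95% intervals that cover counting error only, and with 1 library per genotype no difference could be tested or checked in replicates. Embryo, library and genotype cannot be told apart.

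Pttg1 (ENSMUSG00000020415; chr11:43420250-43426251, minus strand, GRCm38), the securin gene, was higher in the mutant library in each of the 7 gates. It stood at 178 CPM in the control and 610 CPM in the mutant library in ventricular cardiomyocytes, and at 218 and 566 CPM in atrial cardiomyocytes. In the epicardial gate it was 129 and 297 CPM, in mesenchymal cells 177 and 633 CPM, and in endothelial cells 131 and 336 CPM. Macrophages had 149 and 614 CPM, and red cells 47.8 and 310 CPM. The control levels of the 6 gates other than red cells lay between 129 and 218 CPM and the mutant levels between 297 and 633 CPM. The ratio ran from 2.31 (1.88 to 2.85) in the epicardial gate to 6.49 (5.33 to 7.97) in red cells, with 3.42 (3.30 to 3.54) in ventricular cardiomyocytes, 2.60 (2.46 to 2.75) in atrial cardiomyocytes and 3.58 (3.18 to 4.04) in mesenchymal cells. Pttg1 was treated apart from the start because this difference was already known. Of the 1774 genes measured in all 7 gates, 4 (0.225%) were past 1.5-fold higher in the mutant library in every gate, and 0 were lower in every gate. The 4 were Gm10320 with a mean log2 ratio of 4.0, Pttg1 with 1.68, Xist, the RNA of the inactive X chromosome, with 1.32, and Gm10260 with 1.11. No transcript in GENCODE M21 other than its own matched the last 400 bases of Pttg1 over at least 100 bases at 95% identity or more.

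**Figure D1:**
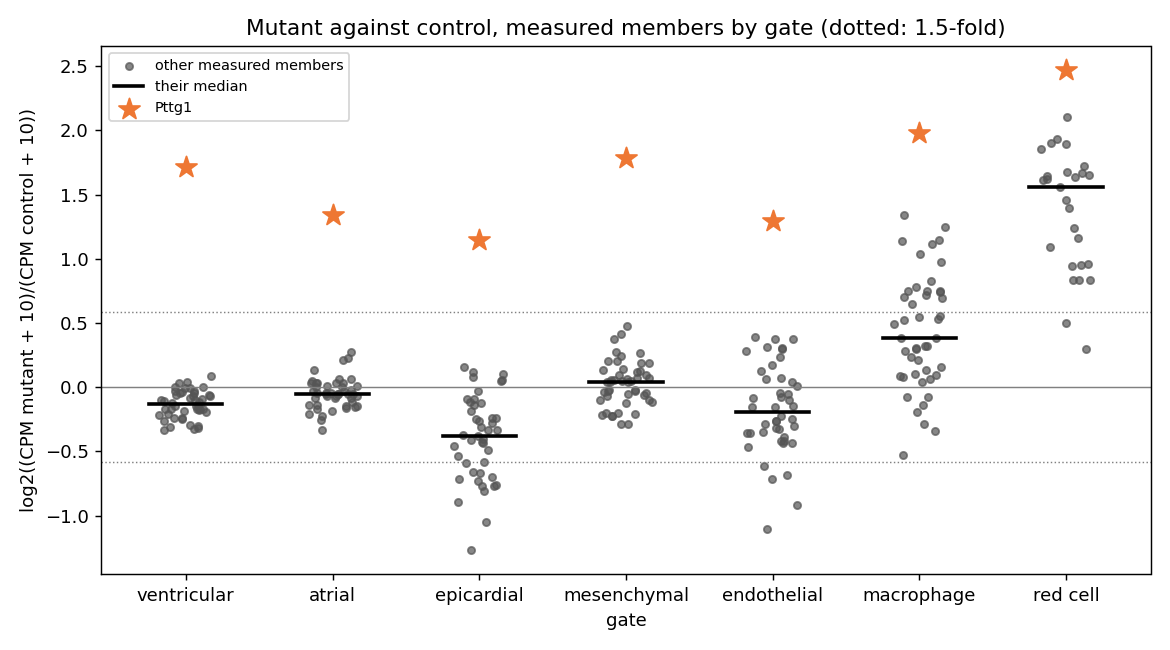
Log2 ratio of mutant to control CPM (10 CPM added) for each measured mitosis gene, by gate; grey points are the 47 genes without Pttg1 where measured, black bars their median, stars Pttg1, and dotted lines mark 1.5-fold. Pttg1 lies above 1 in each gate, from 1.15 in the epicardial gate to 2.47 in red cells, while the medians of the other genes lie between -0.38 and 0.38 in 6 gates and at 1.56 in red cells.

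Cells were called G2/M when 39 core mitosis genes summed to 20 or more per 10000 UMIs after each cell was thinned at random to 2000 UMIs, which is 4 or more core UMIs. The call used neither Pttg1 nor 8 more widely expressed genes of the set (Bub3, Cks1b, Hmgb2, Tubb4b, Tuba1c, Smc4, Arl6ip1 and H2afz), so the levels of these 9 in called and not-called cells are independent of the genes that made the call. In the mutant library Pttg1 went with the call in all 7 gates. Called and not-called mesenchymal cells of the mutant library had 1187 and 108 CPM, a ratio of 11.0 (9.21 to 13.3). The epicardial gate of that library had 900 and 75.4 CPM, a ratio of 11.9 (9.26 to 15.5), and red cells had 1055 and 69.7 CPM, a ratio of 15.1 (12.9 to 17.8). The G1/S and replication genes, summed, also differed in those red cells, with a ratio of 7.29 (6.20 to 8.59), where they had 1.05 to 1.75 in the other 6 mutant gates, and called and not-called red cells had median depths of 3382 and 13367 UMIs; the part of these in the Pttg1 ratio was not tested. Endothelial cells had 580 and 139 CPM (4.16, 3.40 to 5.12), macrophages 806 and 278 CPM (2.90, 2.01 to 4.28), and atrial cardiomyocytes 839 and 345 CPM (2.43, 2.27 to 2.60). The ratio was smallest in ventricular cardiomyocytes, at 712 and 487 CPM (1.46, 1.41 to 1.51).

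In the control library the called to not-called ratio of Pttg1 lay between 0.882 and 1.64 in the 6 gates other than red cells. Ventricular cardiomyocytes of the control had 169 CPM in called and 192 CPM in not-called cells, a ratio of 0.882 (0.830 to 0.937). Securin thus took a slightly smaller part of the UMIs of called cells. Called cells were deeper there, with medians of 13687 and 9131 UMIs, so this ratio does not compare transcripts per cell. The ratio was 0.964 (0.877 to 1.06) in atrial cardiomyocytes, 1.14 (0.720 to 1.77) in the epicardial gate, 0.937 (0.644 to 1.38) in endothelial cells and 1.63 (0.803 to 3.41) in macrophages, where each interval holds 1. Only mesenchymal cells, at 174 and 106 CPM (1.64, 1.19 to 2.28), and red cells, at 262 and 37.4 CPM (7.03, 4.37 to 11.0), had an interval above 1. In the control red cells the summed G1/S and replication genes had a ratio of 8.79 (6.17 to 12.4), against 1.01 to 1.90 in the other 6 control gates. Called and not-called control red cells had median depths of 3357 and 14827 UMIs, and the part of either in the Pttg1 ratio was not tested. The intervals of the control and mutant ratios did not overlap in the ventricular, atrial, epicardial, mesenchymal, endothelial and red cell gates, and did in macrophages.

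The other 8 genes outside the call followed it in both libraries. Hmgb2, a chromatin protein that rises before mitosis, had 1633 CPM in called and 298 CPM in not-called mesenchymal cells of the control, and 1458 and 271 CPM in the mutant library. Its ratio in ventricular cardiomyocytes was 2.88 (2.76 to 3.0) in the control and 3.07 (2.94 to 3.21) in the mutant library. Smc4, a condensin subunit that compacts chromosomes, had 3.29 (3.02 to 3.60) and 3.34 (3.04 to 3.67) there. Its highest ratio in the control, 35.0 in macrophages, comes from 30 called and 1 not-called UMI, with an interval of 5.82 to 1429, and its highest in the mutant library, 9.87 in macrophages, from 57 and 3 UMIs (3.21 to 49.3). Tuba1c, an alpha-tubulin gene, ran from 2.92 to 10.9 over the control gates, the upper end from 57 and 9 UMIs in the epicardial gate, and from 2.04 to 11.6 over the mutant gates. H2afz, a histone variant, ran from 1.49 to 12.8 and from 1.26 to 7.13. Each of the 8 had an interval above 1 in 6 or 7 of the 7 gates in each library, and none had an interval below 1 in any gate. Pttg1 had 2 gates above and 1 below in the control, against 7 above in the mutant library.

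**Figure D2:**
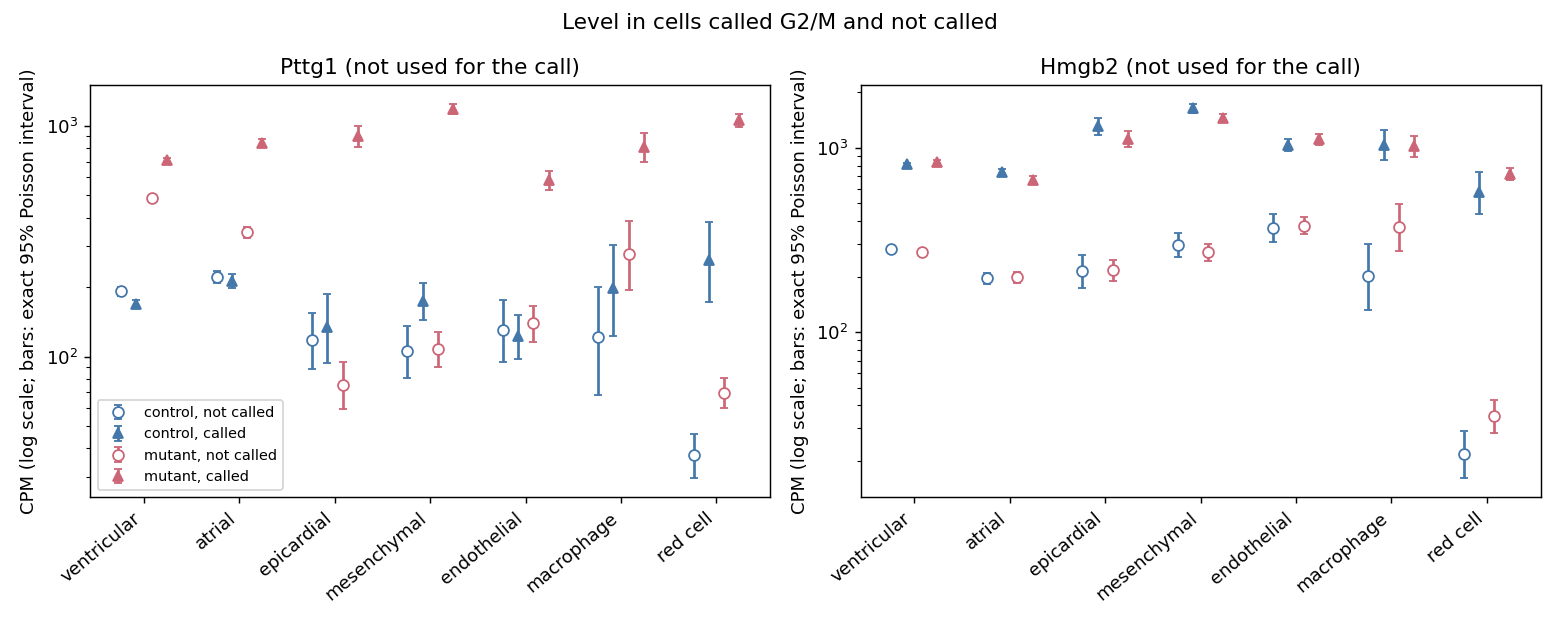
Level (CPM, log scale) of Pttg1 and of Hmgb2, neither used for the call, in cells called G2/M (triangles) and not called (circles), by gate and library; bars are exact 95% Poisson intervals. Pttg1 in the mutant library is separated between called and not-called cells in each gate, such as 1187 against 108 CPM in mesenchymal cells. In the control library the called to not-called ratio is 0.882 to 1.64 outside red cells, with mesenchymal cells at 174 against 106 CPM. Hmgb2 is separated in both libraries.

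The securin difference between the libraries is given separately for cells on each side of the call. In called cells the mutant level was above the control level in all 7 gates, at 3.94 times in atrial cardiomyocytes (3.63 to 4.27), 4.20 times in ventricular cardiomyocytes (4.02 to 4.40), 6.72 times in the epicardial gate (4.74 to 9.81) and 6.82 times in mesenchymal cells (5.64 to 8.33). It was 4.74 times in called endothelial cells (3.75 to 6.05), 4.06 times in macrophages (2.58 to 6.70) and 4.02 times in red cells (2.74 to 6.13). In not-called cells it was above the control level in 4 gates, at 2.54 times in ventricular cardiomyocytes (2.41 to 2.68), 1.56 times in atrial cardiomyocytes (1.43 to 1.70), 2.29 times in macrophages (1.22 to 4.51) and 1.87 times in red cells (1.43 to 2.45). The other 3 gates had 1.02 times in mesenchymal cells (0.744 to 1.40), 1.07 times in endothelial cells (0.750 to 1.54) and 0.640 times in the epicardial gate (0.444 to 0.928). Among not-called cells without a single core UMI at full depth the mutant level was the lower one in 6 gates, with an interval that holds 1 in red cells. It was 101 against 232 CPM in ventricular cardiomyocytes (ratio 0.438, 0.300 to 0.627), 107 against 293 CPM in atrial cardiomyocytes (0.365, 0.254 to 0.516), 66.5 against 155 CPM in mesenchymal cells (0.429, 0.234 to 0.794) and 42.7 against 147 CPM in endothelial cells (0.290, 0.105 to 0.741). The epicardial gate had 40.9 against 119 CPM (0.345, 0.166 to 0.709). These last sets are small, with 26 to 107 control cells and 51 to 140 mutant cells in the 5 gates other than macrophages and red cells. Red cells without a core UMI had 31.1 CPM in the mutant library against 36.4 CPM in the control (0.853, 0.532 to 1.36), and macrophages without one had 3 mutant UMIs and 0 control UMIs, too few to compare. Droplets of the control library with 10 to 100 UMIs, which hold free RNA and no cell, had 166 CPM of Pttg1, a level within the range of the control gates. The mutant table was filtered to barcodes of at least 500 UMIs, so the same value was not analysed for it. If all globin UMIs in the 6 control gates other than red cells came from free RNA, such RNA made up 0.289% to 0.783% of their UMIs.

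The share of cells called G2/M was similar in the 2 libraries in both kinds of cardiomyocyte. It was 51.1% (788 of 1543 cells) in control and 48.1% (579 of 1204) in mutant ventricular cardiomyocytes, a difference of -2.98 points (-6.73 to 0.788). Atrial cardiomyocytes had 35.8% (168 of 469) and 36.3% (130 of 358), a difference of 0.492 points (-6.05 to 7.11). Ventricular cells thus had the higher share in each library. The 39 core genes together stood at 34.5 per 10000 UMIs (34.3 to 34.8) in control and 30.5 (30.2 to 30.7) in mutant ventricular cardiomyocytes. Their level was thus lower in the mutant library there, although the share was similar. Atrial cardiomyocytes had 25.6 (25.2 to 25.9) and 26.1 (25.8 to 26.5).

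In the epicardial gate and in endothelial cells the mutant library had the lower share, by an amount that depended on the thinning. At 2000 UMIs per cell it was 29.5% (43 of 146) in the control and 20.6% (67 of 326) in the mutant epicardial gate, a difference of -8.90 points (-17.7 to -0.632). Endothelial cells had 48.3% (73 of 151) and 33.0% (87 of 264), a difference of -15.4 points (-25.0 to -5.60). The summed core level was lower as well, at 25.4 and 18.6 per 10000 UMIs in the epicardial gate and 27.3 and 21.6 in endothelial cells. Without thinning, over all kept cells, the shares were 19.6% and 15.6% in the epicardial gate (-4.03 points, -10.1 to 1.71) and 35.1% and 27.6% in endothelial cells (-7.48 points, -15.1 to 0.0905), and both intervals reached 0. Thinned to 1000 UMIs they were 22.7% and 18.1% (-4.55 points, -11.0 to 1.55) and 36.3% and 29.4% (-6.86 points, -14.5 to 0.806), again with intervals that hold 0. Thinning to 2000 UMIs left out 114 of 260 control and 104 of 430 mutant cells of the epicardial gate, and 100 of 251 and 66 of 330 endothelial cells.

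Mesenchymal cells gave no direction. At 2000 UMIs per cell the share was 59.7% (182 of 305) in the control and 47.6% (321 of 675) in the mutant library, a difference of -12.1 points (-18.6 to -5.37). Thinned to 1000 UMIs, which kept all 700 and 1120 cells, it was 35.4% and 36.5% (1.09 points, -3.46 to 5.58), and without thinning 34.7% and 33.8% (-0.875 points, -5.38 to 3.57). The summed core level was 35.0 and 35.5 per 10000 UMIs. The 2000-UMI minimum left out 395 control and 445 mutant cells of this gate, whose median depth was 1851 and 2223 UMIs. Called cells had median depths of 2794 and 3087 UMIs and not-called cells 2652 and 2464 UMIs.

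Macrophages and red cells had the higher share in the mutant library. At 2000 UMIs per cell macrophages had 40.4% (23 of 57) and 52.9% (37 of 70), a difference of 12.51 points whose interval of -4.84 to 28.8 holds 0. Thinned to 1000 UMIs the macrophage difference was 20.02 points (4.02 to 34.6), and without thinning 16.25 points (0.549 to 30.9). Both of these intervals leave out 0, so the macrophage reading depended on the thinning. The summed core level of macrophages was 28.1 and 38.4 per 10000 UMIs. Red cells had 14.5% (25 of 173) and 40.1% (131 of 327), a difference of 25.6 points (17.7 to 32.6). The red cells of the libraries also differed in depth, with medians of 12929 and 7837 UMIs, and in globin, which made up 80.1% and 72.3% of their UMIs. Among red cells with globin under 50% of UMIs the share called was 26.2% (11 of 42) and 54.7% (52 of 95), and among those at 50% or more it was 10.7% (14 of 131) and 34.1% (79 of 232). Per 10000 UMIs that were not globin the core genes stood at 16.2 and 58.5 in the first set and at 12.7 and 42.2 in the second, so the direction was the same on each side of the globin split. With a minimum of 200 genes per cell in place of 500 the difference was 13.4 points. The part of depth and of maturation in it was not tested.

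**Figure D3:**
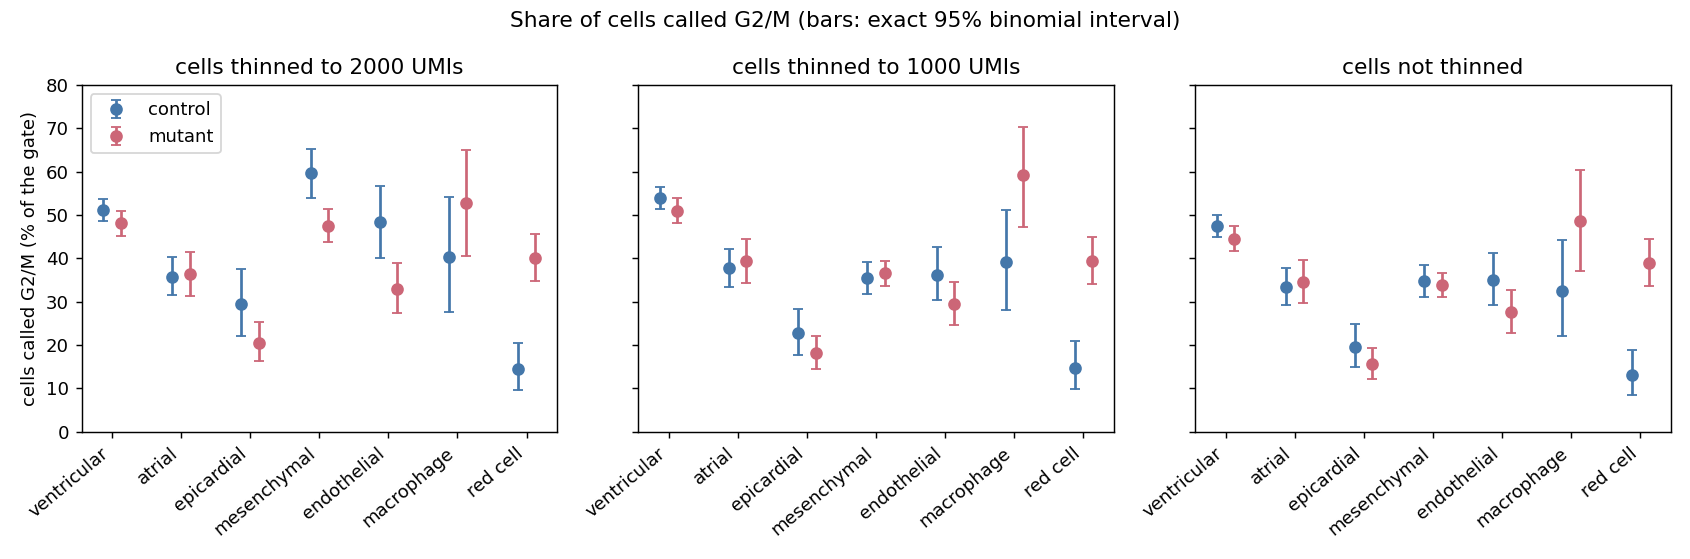
Share of cells called G2/M (%) by gate in the control (blue) and mutant (red) library, with cells thinned to 2000 UMIs, thinned to 1000 UMIs and not thinned; bars are exact 95% binomial intervals. Red cells are apart in all 3 panels, and the mesenchymal difference seen at 2000 UMIs (59.7% and 47.6%) is not seen in the other panels.

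The core UMIs of a thinned cell were spread differently in the gates. In ventricular cardiomyocytes 12.6% of control and 13.1% of mutant cells had 3 or 4 core UMIs, next to the bound of the call, and called cells had a median of 9 and 8 core UMIs. Mesenchymal cells had 6.56% and 7.41% next to the bound, a median of 13 core UMIs in called cells of both libraries, and 27.9% and 21.2% of cells with 15 or more. In the epicardial gate 44.5% of control and 51.2% of mutant cells had no core UMI at all. Among red cells 74.0% and 46.8% had none.

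**Figure D4:**
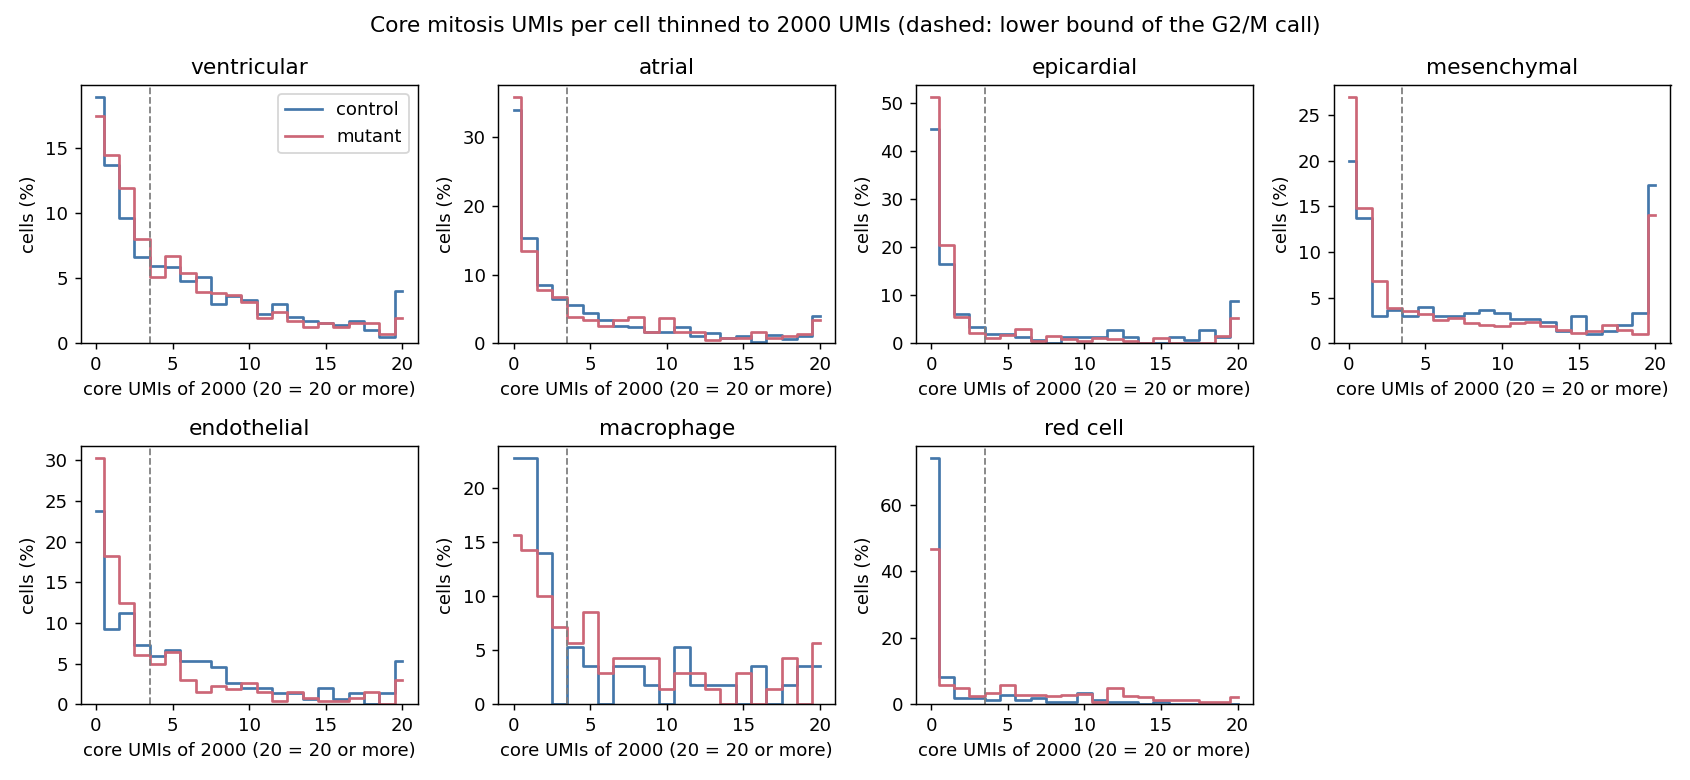
Number of core mitosis UMIs per cell after thinning to 2000 UMIs (last bin 20 or more) against the percentage of cells, by gate, for the control (blue) and mutant (red) library; the dashed line is the lower bound of the call at 4 UMIs. The last bin pools all cells at or above 20 and holds 17.4% of control and 14.1% of mutant mesenchymal cells, and 74.0% of control red cells sit at 0.

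Gene by gene, the 47 members without Pttg1 stayed within 1.5-fold between the libraries, where measured, in cardiomyocytes and mesenchyme. Of 46 measured in ventricular cardiomyocytes 0 were past 1.5-fold, where 0.341% of all measured genes were higher and 0.322% lower, and the median log2 ratio was -0.13 against 0.03 for all genes. By direction alone 41 of these 46 were lower in the mutant library, where 37.9% of all measured genes were. In atrial cardiomyocytes 0 of 46 were past 1.5-fold (0.465% and 0.59% of all genes), with a median of -0.05 against -0.05. In mesenchymal cells 0 of 47 were (0.922% and 1.56%), with a median of 0.04 against -0.02. Endothelial cells had 5 of 44 lower (Ccnb2, Cdc20, Sgo1, Tuba1c and Ube2c) and 0 higher, where 1.15% of all genes were lower and 5.43% higher, and a median of -0.19 against 0.05. In the epicardial gate 13 of 44 were lower and 0 higher, where 4.74% of all genes were lower and 2.15% higher, and the median was -0.38 against -0.03. In macrophages 17 of 46 were higher and 0 lower, where 15.8% of all genes were higher and 14.3% lower, with a median of 0.38 against 0.02.

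The entry into mitosis is driven by Cdk1 and its partners. Cdk1 stood at 273 CPM in control and 215 CPM in mutant ventricular cardiomyocytes, a ratio of 0.786 (0.756 to 0.817). It was 177 and 115 CPM in the epicardial gate (0.649, 0.521 to 0.810) and 281 and 296 CPM in mesenchymal cells (1.05, 0.943 to 1.17). Cks2, a small Cdk1-binding protein, followed the same pattern with less difference, at 164 and 152 CPM in ventricular cardiomyocytes and 126 and 97.7 CPM in the epicardial gate. Its relative Cks1b was close in both, at 237 and 243 CPM and at 223 and 241 CPM. The cyclin gene Ccnb2 was 154 CPM in control and 77.3 CPM in mutant endothelial cells (0.50, 0.397 to 0.628), but 106 and 131 CPM in atrial cardiomyocytes (1.23, 1.12 to 1.35).

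Of the genes that end mitosis, Ube2c, the ubiquitin-conjugating enzyme of the anaphase-promoting complex, went the other way from securin in 4 gates. It was 734 and 618 CPM in ventricular cardiomyocytes (0.842, 0.823 to 0.862), 305 and 233 CPM in the epicardial gate (0.765, 0.652 to 0.899), 522 and 451 CPM in mesenchymal cells (0.864, 0.796 to 0.939) and 426 and 262 CPM in endothelial cells (0.614, 0.540 to 0.698). Atrial cardiomyocytes had 516 and 566 CPM (1.10, 1.05 to 1.15). Cdc20, which activates the complex, was 22.4 and 9.05 CPM in the epicardial gate from 20 and 14 UMIs, and 36.9 and 20.8 CPM in endothelial cells from 44 and 36 UMIs. Set against the core genes, securin took 4.79 to 8.51 UMIs per 100 core UMIs in the 6 control gates other than red cells, and 15.5 to 21.6 in the mutant ones.

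Among kinases and checkpoint genes, Aurka, a kinase of the spindle poles, was 50.1 and 38.4 CPM in ventricular cardiomyocytes (0.766, 0.699 to 0.838) and 39.1 and 39.1 CPM in atrial ones. Plk1, another mitotic kinase, was 30.3 and 15.5 CPM in the epicardial gate (0.512, 0.283 to 0.922). Bub3, a checkpoint protein, differed little, with ratios between 0.872 and 1.28 in the 6 gates other than red cells. The chromosome passengers Birc5 (survivin) and Cdca8 (borealin) were 179 and 131 CPM and 96.5 and 73.2 CPM in endothelial cells, and 230 and 216 CPM and 130 and 115 CPM in ventricular cardiomyocytes. Aurkb, their kinase, had intervals that held 1 in all 6 of those gates.

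At the kinetochore, Cenpa, the histone of centromeres, was 301 and 220 CPM in endothelial cells (0.731, 0.631 to 0.847) and 305 and 355 CPM in atrial cardiomyocytes (1.17, 1.10 to 1.23). Cenpf stood at 107 and 79.5 CPM in the epicardial gate, and Spc25, of the Ndc80 complex, at 98.6 and 78.2 CPM in ventricular cardiomyocytes. Cenpe, a kinetochore motor, was 56.1 and 30.4 CPM in the epicardial gate (0.542, 0.356 to 0.824). Sgo1, shugoshin, which guards centromeric cohesion, was 48.2 and 18.1 CPM there (0.375, 0.225 to 0.618) and 54.5 and 29.4 CPM in endothelial cells (0.539, 0.366 to 0.790). The tubulin gene Tuba1c was 201 and 88.2 CPM in endothelial cells (0.440, 0.357 to 0.541), and Tubb4b 178 and 101 CPM in the epicardial gate (0.566, 0.451 to 0.710). The endothelial log2 ratio of Tuba1c was -1.10, and ran from -1.44 to -0.269 over the processing alternatives. That of Sgo1 in endothelial cells ran from -0.870 to -0.397. In the epicardial gate the range was -0.816 to -0.598 for Tubb4b and -0.863 to -0.400 for Cenpe. Near-identical copies share the end of Tuba1c (Tuba1a, Tuba1b and pseudogenes), Tubb4b and Cks2. The ends of H2afz, Prc1, Kif20a, Ckap2l, Tubb4b and Tuba1c match a transcript of another gene in the reverse direction. The counts of all these genes are uncertain. Ndc80 has a pseudogene that shares part of its end, and the ends of Cenpf and Kif11 hold stretches found in many transcripts.

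Of the 5 cytokinesis genes, which act as the cell is pinched apart, 4 were past 1.5-fold lower in the mutant epicardial gate (Anln, Kif20a, Kif23 and Racgap1), where 4.74% of all measured genes were. Kif20a, a kinesin of the central spindle, was 35.9 and 9.05 CPM from 32 and 14 UMIs (0.252, 0.124 to 0.486). Kif23 and Racgap1, which together form the centralspindlin complex, were 32.5 and 12.9 CPM (0.398, 0.213 to 0.727) and 37.0 and 16.8 CPM (0.454, 0.261 to 0.783). Ect2, which centralspindlin recruits, was 21.3 and 20.7 CPM. In mesenchymal cells Kif20a, Kif23 and Racgap1 had ratios of 0.945, 0.814 and 1.19, each with an interval that holds 1. Mki67, the Ki-67 antigen, was 75.2 and 40.1 CPM in the epicardial gate (0.533, 0.371 to 0.765) and 39.3 and 40.7 CPM in mesenchymal cells. The 13 genes lower there rest on few transcripts, and their number ranged from 1 with 50 CPM added to 18 over the processing alternatives. The epicardial markers themselves stood at 31.1 and 24.6 per 10000 UMIs in this gate and the mesenchymal ones at 40.6 and 37.6.

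Macrophage values come from 255837 control and 378080 mutant UMIs. Tubb4b was 82.1 and 209 CPM (2.55, 1.56 to 4.34), Cenpe 39.1 and 97.9 CPM (2.50, 1.22 to 5.65), and Top2a, the topoisomerase that untangles sister chromatids, 70.4 and 148 CPM (2.11, 1.22 to 3.81). The log2 ratio of Top2a was 0.976, and ran from 0.149 to 1.23 over the processing alternatives. That of Cenpe ran from 0.476 to 1.30 and that of Tubb4b from 0.971 to 1.41. Of the 46 measured genes 39 were above the control, where 52.6% of all measured genes were, and 7 were below it, among them Arl6ip1 at 766 and 603 CPM. Megakaryocyte markers stood at 0.0782 per 10000 UMIs in the control and 4.60 in the mutant macrophage gate, and macrophage markers at 227 and 156, with 4 of 5 megakaryocyte markers at 0 in the control and none at 0 in the mutant library. Their part in the result was not tested.

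In red cells all 47 genes had a higher level in the mutant library, measured or not, where 90.8% of all measured genes did. Ube2c was 41.7 and 182 CPM (4.36, 3.52 to 5.46), Hmgb2 46.9 and 202 CPM (4.31, 3.52 to 5.32), Mki67 16.9 and 92.8 CPM (5.48, 3.93 to 7.85) and Nusap1, a spindle protein, 6.08 and 59.2 CPM (9.74, 5.68 to 18.1). Smaller differences were seen for Tubb4b, at 201 and 249 CPM (1.24, 1.11 to 1.39), and Tuba1c, at 56.9 and 84.8 CPM (1.49, 1.21 to 1.84). CPM in this gate includes the globin UMIs. Only 27 of the 47 genes reached 10 CPM on average, and a gene passes this minimum more easily where 1 library is high, so a count over them is only a description: 25 were past 1.5-fold higher, where 30.8% of all measured genes were, and 0 lower, where 0.753% were. The median log2 ratio of the 27 was 1.56, and 0.96 over all 47, against 0.43 for all measured genes.

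**Figure D5:**
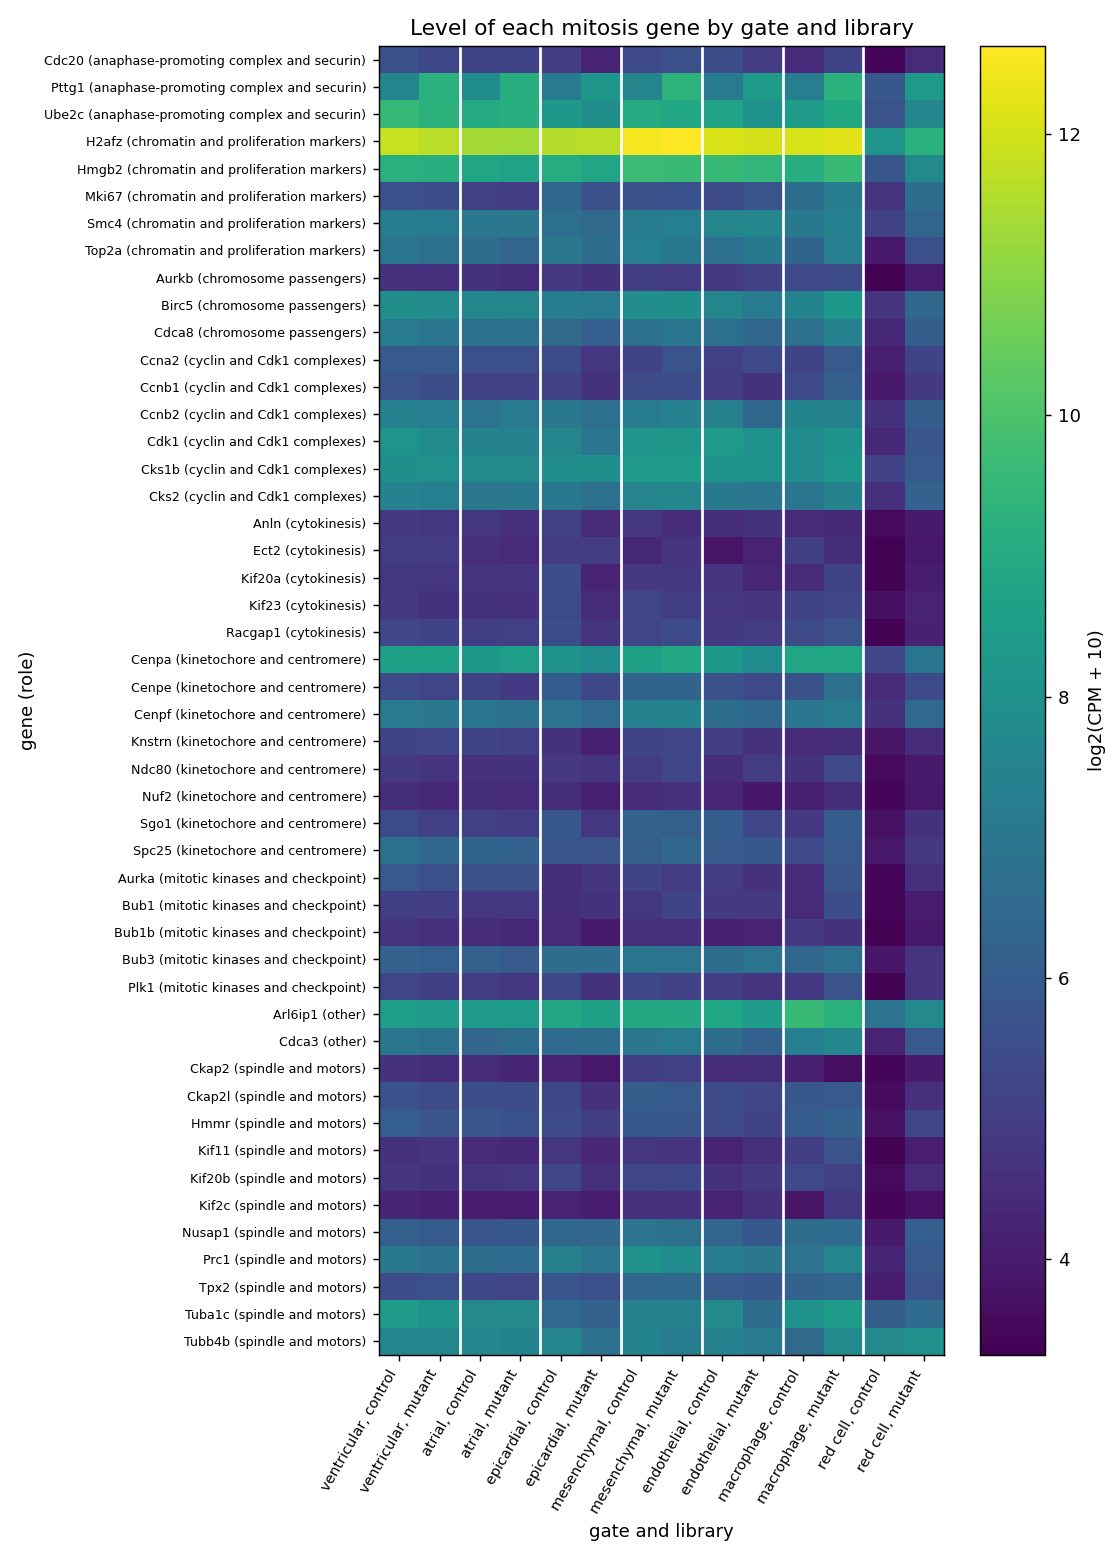
Level of each of the 48 mitosis genes, as log2(CPM + 10), by role (rows) and by gate and library (columns). The Pttg1 row is brighter in each mutant column, and the control red cell column is the darkest, with Ube2c at 41.7 CPM there against 182 CPM in the mutant red cells.

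Within each library the genes also differed between lineages. The 2 libraries are set beside each other here, but they differ in genotype, so neither is a replicate of the other. Set against ventricular cardiomyocytes, 6 of 39 core genes had a share of core UMIs past 1.5-fold higher in mesenchymal cells in both libraries, and 1 lower. Shares of core UMIs exist for these 39 genes only, so no share over all genes stands beside this count. Prc1, which bundles microtubules of the central spindle, made up 7.30% of core UMIs in mesenchymal cells and 3.57% in ventricular cardiomyocytes of the control, and 6.22% and 3.38% in the mutant library. The Prc1 count is uncertain because its end matches a transcript of another gene in the reverse direction. Cenpe took 1.94% and 0.985% in the control and 1.98% and 0.924% in the mutant library, and Sgo1 1.88% and 0.938%, and 1.68% and 0.779%. Tpx2, Nusap1 and Kif20b were also past 1.5-fold higher in mesenchymal cells in both libraries. Aurka went the other way, at 0.775% and 1.45% of core UMIs in the control and 0.577% and 1.26% in the mutant library. The remaining 32 of 39 core genes were not past 1.5-fold in one direction in both libraries. Between atrial and ventricular cardiomyocytes 0 of 39 were. In levels, 7 of 47 genes were past 1.5-fold higher and 4 lower in mesenchymal than in ventricular cells of the control, where 41.5% of all measured genes were higher and 11% lower, and 8 higher and 2 lower in the mutant library, where 36.7% and 11.3% were. H2afz was one of those higher, at 5714 and 3627 CPM in the control and 6318 and 3211 CPM in the mutant library. In atrial against ventricular cells 0 of 46 were higher and 3 lower in the control (6.3% and 2.76% of all genes), and 0 and 0 in the mutant library (5.1% and 3.17%).

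Between the epicardial gate and mesenchymal cells 3 of 39 core genes took a larger share in the former in both libraries, among them Mki67, with 2.96% and 1.12% of core UMIs in the control and 2.16% and 1.15% in the mutant library. Ect2 had 0.841% and 0.316%, and 1.12% and 0.490%, and Anln 0.929% and 0.506%, and 0.662% and 0.358%. Ckap2 was the only one past 1.5-fold the other way in both. In levels, 11 of 47 genes were past 1.5-fold lower and 2 higher in the epicardial gate than in mesenchymal cells of the control, where 9.74% of all measured genes were lower and 10.9% higher. In the mutant library 26 of 46 were lower and 0 higher, where 9.19% and 8.75% were. Endothelial cells had 7 of 46 lower and 0 higher than mesenchymal cells in the control, where 17.2% and 10.1% of all genes were, and 19 of 46 lower and 0 higher in the mutant library, where 10.3% and 10.8% were. Whether these counts differ between genotypes was not tested, since each library is 1 sample.

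Neighbouring gene lists were read beside the 48. Of 29 other G2 and M genes, 16 were measured in the epicardial gate, with a median log2 ratio of -0.35 against -0.03 for all measured genes, and 1 was past 1.5-fold lower (Aspm, 17.9 and 7.11 CPM), where 4.74% of all genes were. In macrophages 9 of 19 measured were past 1.5-fold higher and 0 lower, where 15.8% of all genes were higher and 14.3% lower. Of 25 G1/S and replication genes, which act before mitosis, 23 measured in the epicardial gate had a median of 0.15 against -0.03 for all genes, with 1 past 1.5-fold higher (Mcm3, 17.9 and 35.6 CPM), where 2.15% of all genes were. In endothelial cells 24 were measured, with a median of 0.07 against 0.05 for all genes and 2 past 1.5-fold higher (Mcm7, 39.4 and 66.3 CPM, and Ccne1, 15.9 and 29.4 CPM), where 5.43% of all genes were. In atrial cardiomyocytes 21 of 23 were lower, where 63.4% of all genes were, with a median of -0.21 against -0.05. In the ventricular, atrial and mesenchymal gates 0 were past 1.5-fold, where 0.322% to 1.56% of all genes were in each direction. The ventricular median was -0.003 against 0.03 and the mesenchymal one 0.02 against -0.02. Macrophages had 4 of 21 higher (15.8%) and 1 lower (14.3%), and red cells 3 of 4 higher (30.8%). Of 19 controllers of mitosis genes 7 were measured in each of the 6 gates other than red cells, and those past 1.5-fold were 1 higher in endothelial cells (E2f3, 15.1 and 32.9 CPM), where 5.43% of all genes were, and 1 lower in macrophages, where 14.3% were. Foxm1 and Mybl2 were under the minimum level in every gate, so these counts say nothing about them. Of the 22 genes of the anaphase-promoting complex and cohesin, 19 to 21 were measured in the ventricular, atrial, epicardial, mesenchymal and endothelial gates. There 0 were past 1.5-fold, where 0.341% to 5.43% of all genes were higher and 0.322% to 4.74% lower. In macrophages 2 of 18 were higher and 3 lower, where 15.8% and 14.3% of all genes were. Red cells had 6 of 11 higher and 0 lower, where 30.8% and 0.753% were. Of 13 G1 cyclins, kinases and inhibitors, 0 were past 1.5-fold in the ventricular, atrial and epicardial gates. In mesenchymal cells 1 of 10 measured was higher (0.922% of all genes), and in endothelial cells 1 of 9 (5.43%). Both were Cdkn1a, which encodes the inhibitor p21, at 7.75 and 21.1 CPM (14 and 68 UMIs) and 20.1 and 36.3 CPM. Macrophages had 3 of 9 higher (15.8%) and 1 lower (14.3%), Cdkn1a, at 54.7 and 10.6 CPM (14 and 4 UMIs). Red cells had 4 of 5 higher (30.8%).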

How the data were processed

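Both libraries were made from E12.5 hearts dissociated with TrypLE on a 10X Genomics Chromium v2 kit, per the labels. The deposited values were counts of UMIs for each gene in each barcode, which the authors produced in Cell Ranger 3.0.2 (version per the file headers), and Seurat is also named, per the submitters' processing notes. Not given in the sources used here are the aligner, its settings, the genome build and the annotation. The control table listed 6794880 barcodes, 542175 with a UMI, and that of the mutant 7181, each with at least 500 UMIs. The size of the control list leaves the kit version uncertain.

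Cells were filtered and gated by summed marker UMIs per 10000: red cell at 500 or more, macrophage 30, cardiomyocyte 50 (ventricular 75; atrial 100 with ventricular under 50), epicardial 10 and 2 UMIs, mesenchymal 15 and endothelial 15. Thresholds were set with the data at hand, and cells between gates or in more than 1 were left out. A Scrublet-type score (scanpy 1.11.5) marked 0 cells by its automatic threshold and so did not work; leaving out the top 6% of scores was an alternative. Computation used Python 3.11.15, numpy 2.4.6, scipy 1.17.1 and pandas 2.3.3, with blastn 2.17.0+ for shared transcript ends. Shares have Clopper-Pearson intervals, differences Newcombe intervals, levels Poisson intervals and ratios conditional binomial intervals. No p-value was computed.

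Named genes were Pttg1, the 3 members with most UMIs in each role, the 3 highest and lowest past 1.5-fold in each gate with at least 50 CPM in 1 library and 30 UMIs over both, and genes past 1.5-fold in all gates; other genes were chosen after their values were seen. The members and lists were chosen with earlier results of these data known. The ratio computation was tested on simulated data.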

Additional observations from a re-analysis of the deposited data

Results flagged for a closer look

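In 4 gates the share of cells called G2/M differed between the libraries at 2000 UMIs per cell with an interval that leaves out 0, and the gates did not move alike. The difference, mutant minus control, was -8.90 points in the epicardial gate, -12.1 points in mesenchymal cells, -15.4 points in endothelial cells and 25.6 points in red cells. The difference between gates was not tested, because there is 1 library per genotype. Thinned to 1000 UMIs it was -4.55 points in the epicardial gate (-11.0 to 1.55), -6.86 points in endothelial cells (-14.5 to 0.806) and 1.09 points in mesenchymal cells (-3.46 to 5.58). Without thinning it was -4.03 points (-10.1 to 1.71), -7.48 points (-15.1 to 0.0905) and -0.875 points (-5.38 to 3.57), so in these 3 gates the interval holds 0 under both settings. Macrophages went the other way, with an interval that held 0 at 2000 UMIs and left it out under both settings. Their difference was 20.02 points (4.02 to 34.6) thinned to 1000 UMIs and 16.25 points (0.549 to 30.9) without thinning. Both settings change which cells enter as well as the depth of the call, and the cause of the shift was not tested.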

How the results depend on the processing

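Of the main values under each alternative 200 stayed within their limit, 17 moved past it and 1 reversed. The limit was set by the counting interval for shares and ratios, and for medians by the median half-width of the single-gene intervals. Of single genes and counts 402 kept within their limit and 62 did not, where counts had a limit of 1.5-fold. The mesenchymal share difference was 1.09 points thinned to 1000 UMIs, and -0.875 points both without thinning and per 10000 UMIs that are not haemoglobin, an alternative added after seeing the data. With a minimum of 200 genes the red cell difference was 13.4 points and the red cell log2 ratio of Pttg1 2.11. With 50 CPM added the log2 ratio of Pttg1 was 1.53 in ventricular, 1.20 in atrial, 1.59 in mesenchymal and 1.88 in red cells, and the median of the other genes in red cells 0.71; that median was 0.96 with no minimum level. With equal weight per cell the log2 ratio of Pttg1 was 1.81 in ventricular, 1.5 in mesenchymal and 2.82 in red cells. In red cells it was 1.98 with median-of-ratios scaling and 2.18 with haemoglobin and mitochondrially encoded genes out of the total. With gate thresholds doubled it was 1.64 in ventricular cells and 0.73 in the epicardial gate. The cause of these shifts was not tested. Over the alternatives run, members past 1.5-fold numbered 1 to 18 lower in the epicardial gate, 3 to 6 lower in endothelial cells, 6 to 20 higher in macrophages and 18 to 41 higher in red cells, and 0 in either direction in both cardiomyocyte gates. The ratio of Pttg1 in called to not-called cells stayed between 1.04 and 2.13 in control and between 9.0 and 13.7 in mutant mesenchymal cells, and between 0.867 and 0.927 and between 1.38 and 1.72 in ventricular cardiomyocytes. No paired analysis was possible because each genotype has 1 library. Macrophages (57 and 70 thinned cells) limit the precision most, and low-level genes rest on few UMIs.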
